A study of Mus musculus with 208 samples.

Results

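Chemokines are small secreted proteins that guide leukocytes into tissue, and their receptors are the membrane proteins through which leukocytes sense them. The genes described here are those whose array annotation carries the name of a CC, CXC, CX3C or XC chemokine, of one of their signaling receptors, or of an atypical receptor. They were chosen by name alone and comprise 80 probes for 62 genes, of 25697 probes for 16593 named genes on the array. Of the 80 probes, 52 stand for 40 ligand genes and 28 for 22 receptor genes.

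CC chemokines such as Ccl2 and Ccl7 are known for calling monocytes out of the blood through Ccr2, CXC chemokines such as Cxcl1 for calling neutrophils through Cxcr2, and the interferon-induced Cxcl9 and Cxcl10 for calling T cells through Cxcr3. Cxcl12 and its receptor Cxcr4 retain progenitors and act in vessel growth, and Ccl19 and Ccl21 guide dendritic cells and T cells through Ccr7. Atypical receptors do not signal through G proteins but bind, carry or take up chemokines and so shape their gradients. In the heart, resident macrophages, fibroblasts and endothelial cells are all known sources of chemokines.

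Left ventricles of female mice of 99 inbred strains of the Hybrid Mouse Diversity Panel were profiled on 208 arrays, each loaded with RNA pooled from mice of 1 strain and condition. In the ISO arrays (93 strains, 9 of them with more than 1 array) the mice had received Isoproterenol (ISO), a non-selective β-adrenergic agonist, by minipump for 3 weeks. In the control arrays (93 strains, 13 of them with more than 1 array) the mice were left untreated over the same time. The labels give the dose as 30 ug per g body weight per day, while the design text of the series gives 20, and the labelled age of the hearts is 10 weeks. The strains carry no engineered allele and fall into classical inbred strains and 5 families of recombinant inbred strains made by crossing a pair of classical strains: BXD/TyJ, BXD/RwwJ, AXB and BXA, BXH, and CXB. ISO was compared with control within the 87 strains that had both, on the means of each strain, and the lowest, median and highest levels given below are over these 87 strains. Since each array is a pool, a value describes a strain's pool and not single mice, and in bulk tissue more cells of a type cannot be told apart from more RNA per cell.

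Between 28.92% and 50.27% of probes were detected above background in ISO arrays, and between 38.08% and 49.56% in control arrays. The 26 array slides (BeadChips) fall into 3 sets by slide number, with a mostly fixed position for each treatment on a slide, so that position and treatment can hardly be told apart. On BeadChips 12, 19, 23, 24 and 25, 0 of 28 arrays of strains with both conditions most resembled their own strain among arrays of the other condition, over 498 probes with strongly strain-dependent levels and no chemokine probe among them. On the other BeadChips 115 of 168 did, with as few as 2 of 8 on BeadChips 6 and 21. BeadChips 12, 23 and 25 hold no strain in both conditions, so their arrays could match only across slides. The strain names of BeadChips 12, 19, 23, 24 and 25 are treated as in doubt, and results are also given without them. The ISO arrays of AXB-19/PgnJ and NOD/LtJ and 3 control arrays stood apart from the rest of their group. All 11 measured cardiomyocyte markers were detected. Over all probes the median log2 fold change, ISO minus control, was -0.00.

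The largest chemokine responses to ISO were those of CC ligands. At an adjusted p-value under 0.05 and a log2 fold change beyond 0.2 (limma, strain as a block, Benjamini-Hochberg over all probes), 15 of the 80 probes, for 14 genes, were higher in ISO and 2 were lower. Over all probes 7.25% were called in either direction, 3.72% as higher and 3.53% as lower. Of the 28 CC ligand probes, 9 (8 genes) were higher and 0 lower, of the 22 CXC ligand probes 4 were higher and 1 lower, and of the 28 receptor probes 1 was higher and 1 lower. The other higher probe was Cx3cl1. Of the 28 CC ligand probes, 10 had an adjusted p-value under 0.05 with no fold limit, the tenth being Ccl24. Over all probes 15.1% did. The median log2 fold change was 0.04 over the ligand probes and 0.01 over the receptor probes. Of the 80 probes, 43 (34 genes) were detected on at least 10% of the arrays, and all 17 called probes were among these. The other 37 probes, 19 of them for receptors, lay near background, and their log2 fold changes ranged between -0.03 and 0.12.

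**Figure D1:**
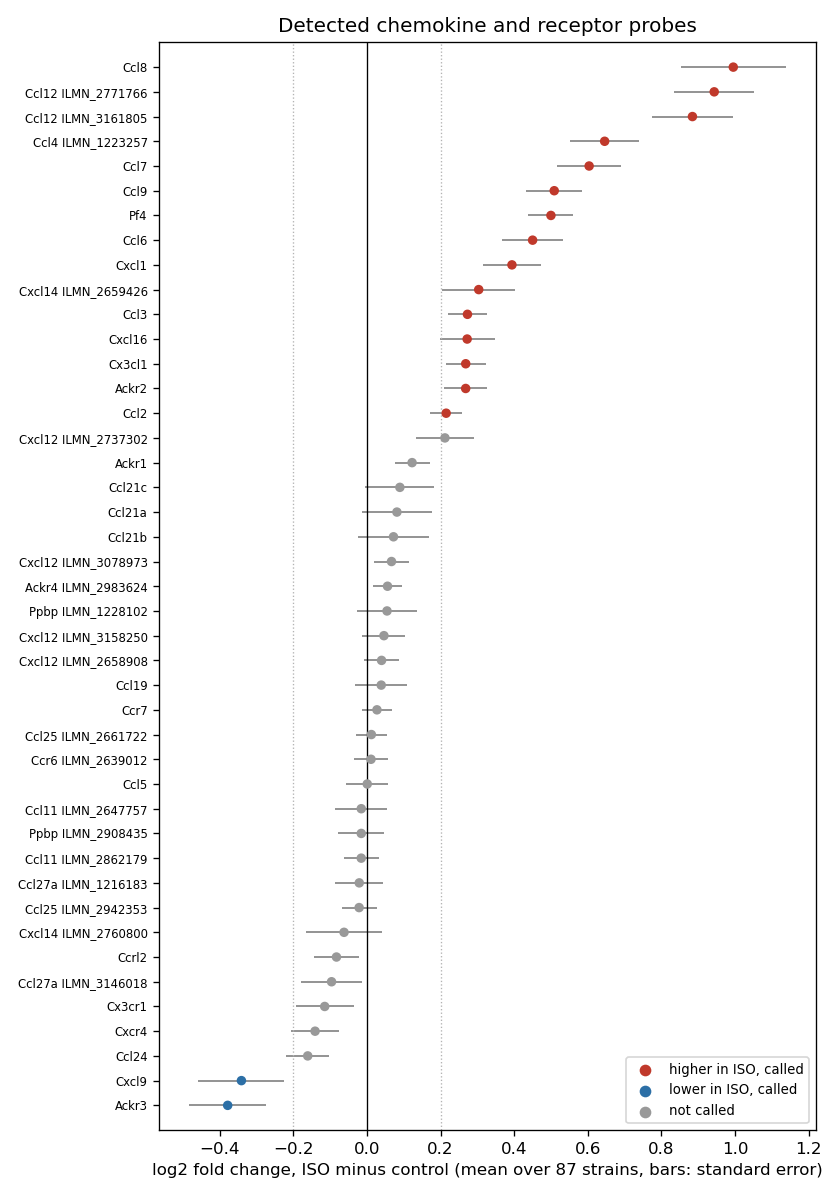
Log2 fold change (ISO minus control, x axis) with its standard error for each of the 43 probes detected on at least 10% of the arrays (y axis), over 87 strains, with dotted lines at the fold limit of 0.2. Ccl8 and both Ccl12 probes lie farthest to the right, and Cxcl9 and Ackr3 are the lower ones that were called.

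Promoter windows from 250 bases before to 50 bases after the gene start were in the RefSeq table (build GRCm38.p6) for 47 of the 62 genes and 12 of the 16 called genes. Windows of 5 called genes are printed: those of Ccl8 and Ccl12, which rose most and are neighbors, of Ccl9 and Cxcl1, which rose and hold an NF-kB match, and of Cxcl9, which fell. Capitals mark matches on either strand to TATAAA, to the AP-1 motif TGANTCA and to the NF-kB consensus. The windows are Ccl12 at chr11:82101595-82101894 (plus strand), Ccl8 at chr11:82114935-82115234 (plus strand), Ccl9 at chr11:83578587-83578886 (minus strand), Cxcl1 at chr5:90890995-90891294 (plus strand) and Cxcl9 at chr5:92328030-92328329 (minus strand), each written 5′ to 3′ along its gene.
Ccl12: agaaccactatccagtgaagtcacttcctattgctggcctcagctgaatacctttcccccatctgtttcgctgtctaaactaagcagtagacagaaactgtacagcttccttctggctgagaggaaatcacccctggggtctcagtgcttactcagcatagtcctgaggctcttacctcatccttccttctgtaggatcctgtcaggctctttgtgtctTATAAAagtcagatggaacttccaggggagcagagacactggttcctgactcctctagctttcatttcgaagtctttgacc
Ccl8: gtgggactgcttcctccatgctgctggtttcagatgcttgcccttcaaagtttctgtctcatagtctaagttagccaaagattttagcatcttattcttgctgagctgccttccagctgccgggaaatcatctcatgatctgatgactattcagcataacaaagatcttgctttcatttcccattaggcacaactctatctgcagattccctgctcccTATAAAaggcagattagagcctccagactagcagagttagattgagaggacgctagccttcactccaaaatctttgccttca
Ccl9: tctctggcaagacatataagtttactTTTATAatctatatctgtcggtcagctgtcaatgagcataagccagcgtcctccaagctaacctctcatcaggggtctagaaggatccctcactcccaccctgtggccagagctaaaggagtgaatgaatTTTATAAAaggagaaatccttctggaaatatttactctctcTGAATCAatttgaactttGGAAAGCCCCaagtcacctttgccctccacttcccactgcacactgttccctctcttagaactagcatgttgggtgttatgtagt
Cxcl1: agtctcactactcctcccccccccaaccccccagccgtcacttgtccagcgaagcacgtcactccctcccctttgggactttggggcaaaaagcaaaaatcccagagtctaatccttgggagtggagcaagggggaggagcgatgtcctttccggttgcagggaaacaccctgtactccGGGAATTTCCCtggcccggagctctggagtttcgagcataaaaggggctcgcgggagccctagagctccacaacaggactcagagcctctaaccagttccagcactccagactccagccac
Cxcl9: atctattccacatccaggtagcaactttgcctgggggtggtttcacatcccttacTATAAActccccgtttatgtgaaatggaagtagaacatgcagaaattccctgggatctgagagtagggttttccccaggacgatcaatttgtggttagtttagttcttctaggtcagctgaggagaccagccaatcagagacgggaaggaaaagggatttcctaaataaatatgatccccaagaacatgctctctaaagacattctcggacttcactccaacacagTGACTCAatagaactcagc
The TATAAA of Ccl12 starts 31 bases before the gene start and that of Ccl8 starts 32 bases before it. In Ccl9 an AP-1 match lies between an NF-kB match and a TATAAA, and in Cxcl1 matches on both strands overlap in one NF-kB site 71 bases before the start. TATAAA was in 13 of the 47 windows, against 14.2% of 27025 windows of all genes. The NF-kB consensus was in 9 of the 47, against 4.35% of all windows, and TGANTCA in 8 of the 47, against 7.93%. The interferon-γ motif TTCNNNGAA was in 4 of the 47, against 8.47%. In windows with several motifs their matches could overlap by a few bases, as in the TATAAA matches of Ccl9 on opposite strands. A match is a run of letters and was not tied to binding or to the response.

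Ccl2, Ccl7, Ccl11, Ccl12, Ccl8 and Ccl1 lie side by side on chromosome 11, with no other protein-coding gene between them, and 4 of these 6 genes rose. Ccl8, in the mouse a ligand of Ccr8, had a lowest, median and highest level of 4.63, 6.85 and 11.56 (normalized log2 intensity) among the ISO strains, against 4.45, 5.77 and 8.39 among the control strains. Its log2 fold change was 0.995 ± 0.143 (standard error, n = 87 strains; adjusted p = 4.845e-08), or 1.99-fold, and it was higher in ISO in 67 of 87 strains. The groups overlapped widely, and the spread of the change itself was large, from -2.16 in BXH-6/TyJ, one of the strains on a BeadChip in doubt, to 4.71 in NON/LtJ.

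Ccl12, a mouse ligand of Ccr2, was measured by 2 probes that moved alike. With probe ILMN_2771766, the lowest, median and highest levels were 5.03, 7.55 and 10.25 in ISO and 4.77, 6.67 and 8.37 in control. Its log2 fold change was 0.94 ± 0.11 (adjusted p = 3.536e-11), with 68 of 87 strains higher in ISO, and that of probe ILMN_3161805 was 0.88 ± 0.11 (adjusted p = 4.695e-10), with 70 strains higher. The ISO median lay above the control median by more than the standard error, but most strains of either group fell in the range of the other.

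Ccl7, a further Ccr2 ligand, had levels of 4.49, 5.79 and 9.13 (lowest, median, highest) in ISO and 4.43, 5.12 and 8.03 in control, and rose by 0.60 ± 0.09 on the log2 scale (adjusted p = 5.190e-08, 68 of 87 strains higher). Ccl7 was detected on 72 ISO arrays and 47 control arrays. Ccl2, the best known monocyte attractant, lay close to background, being detected on 24 ISO arrays and 6 control arrays. Its levels were 4.37, 4.76 and 6.61 in ISO and 4.31, 4.64 and 5.32 in control, and its log2 fold change was 0.22 ± 0.04 (adjusted p = 7.257e-05, 60 strains higher), with most strains of both groups near background. The neighbor Ccl11, an eosinophil attractant, was detected on 99.5% of arrays with probe ILMN_2647757. Its levels were 5.10, 6.57 and 8.09 in ISO and 5.28, 6.55 and 8.28 in control, and its log2 fold change was -0.02 ± 0.07 (adjusted p = 0.932). Ccl1 was detected on 0.481% of arrays.

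Ccl5, Ccl9, Ccl6, Ccl3 and Ccl4 are a second run of neighbors farther along chromosome 11, and 4 of these 5 rose. Ccl9 and Ccl6, both Ccr1 ligands of the mouse, were well detected. Ccl9 had levels of 7.04, 9.35 and 11.11 in ISO and 7.79, 8.90 and 10.33 in control, with a log2 fold change of 0.51 ± 0.08 (adjusted p = 1.668e-07, 69 strains higher). Ccl6 had levels of 4.79, 6.55 and 9.52 in ISO and 4.41, 6.14 and 7.47 in control, with a log2 fold change of 0.45 ± 0.08 (adjusted p = 1.644e-05, 67 strains higher). In both genes the lowest to highest ranges of ISO and control overlapped over most of their length.

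Ccl4 and Ccl3, chemokines that activated macrophages and T cells make, also rose. Ccl4 had levels of 4.48, 6.02 and 9.19 in ISO and 4.45, 5.53 and 7.68 in control with probe ILMN_1223257, and a log2 fold change of 0.65 ± 0.09 (adjusted p = 4.909e-08, 67 strains higher). Its second probe, ILMN_1224472, was detected on 3.85% of arrays and had a log2 fold change of 0.08 (adjusted p = 0.115). Ccl3 was detected on 19 ISO arrays and 3 control arrays. Its levels were 4.33, 4.82 and 7.10 in ISO and 4.35, 4.60 and 5.66 in control, with a log2 fold change of 0.27 ± 0.05 (adjusted p = 6.518e-05, 64 strains higher), so in most strains both values were near background. Ccl5, a T cell product, had levels of 4.51, 4.92 and 7.001 in ISO and 4.40, 4.91 and 6.94 in control, and a log2 fold change of 0.00 ± 0.06 (adjusted p = 0.997).

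The 8 CC genes that rose did so together in many strains, a count that follows from their being called and is given as a description. All 8 were higher in ISO in 28 of 87 strains, at least 6 in 55 strains, and 0 in 1 strain, BXH-6/TyJ. SEA/GnJ, NON/LtJ and AXB-20/PgnJ had the highest mean log2 difference over the 8 genes, at 1.86, 1.85 and 1.75, and BXD50/RwwJ (-0.55) and BXH-6/TyJ (-0.85) had the lowest. Of other CC ligands, Ccl24, an eosinophil attractant made by macrophages, had levels of 4.50, 5.23 and 6.37 in ISO and 4.47, 5.44 and 6.32 in control. Its log2 fold change of -0.16 ± 0.06 (adjusted p = 0.0444) was under the fold limit. Ccl25, Ccl19, the 3 Ccl21 genes and Ccl27a were detected and not called, with log2 fold changes between -0.10 and 0.09.

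**Figure D2:**
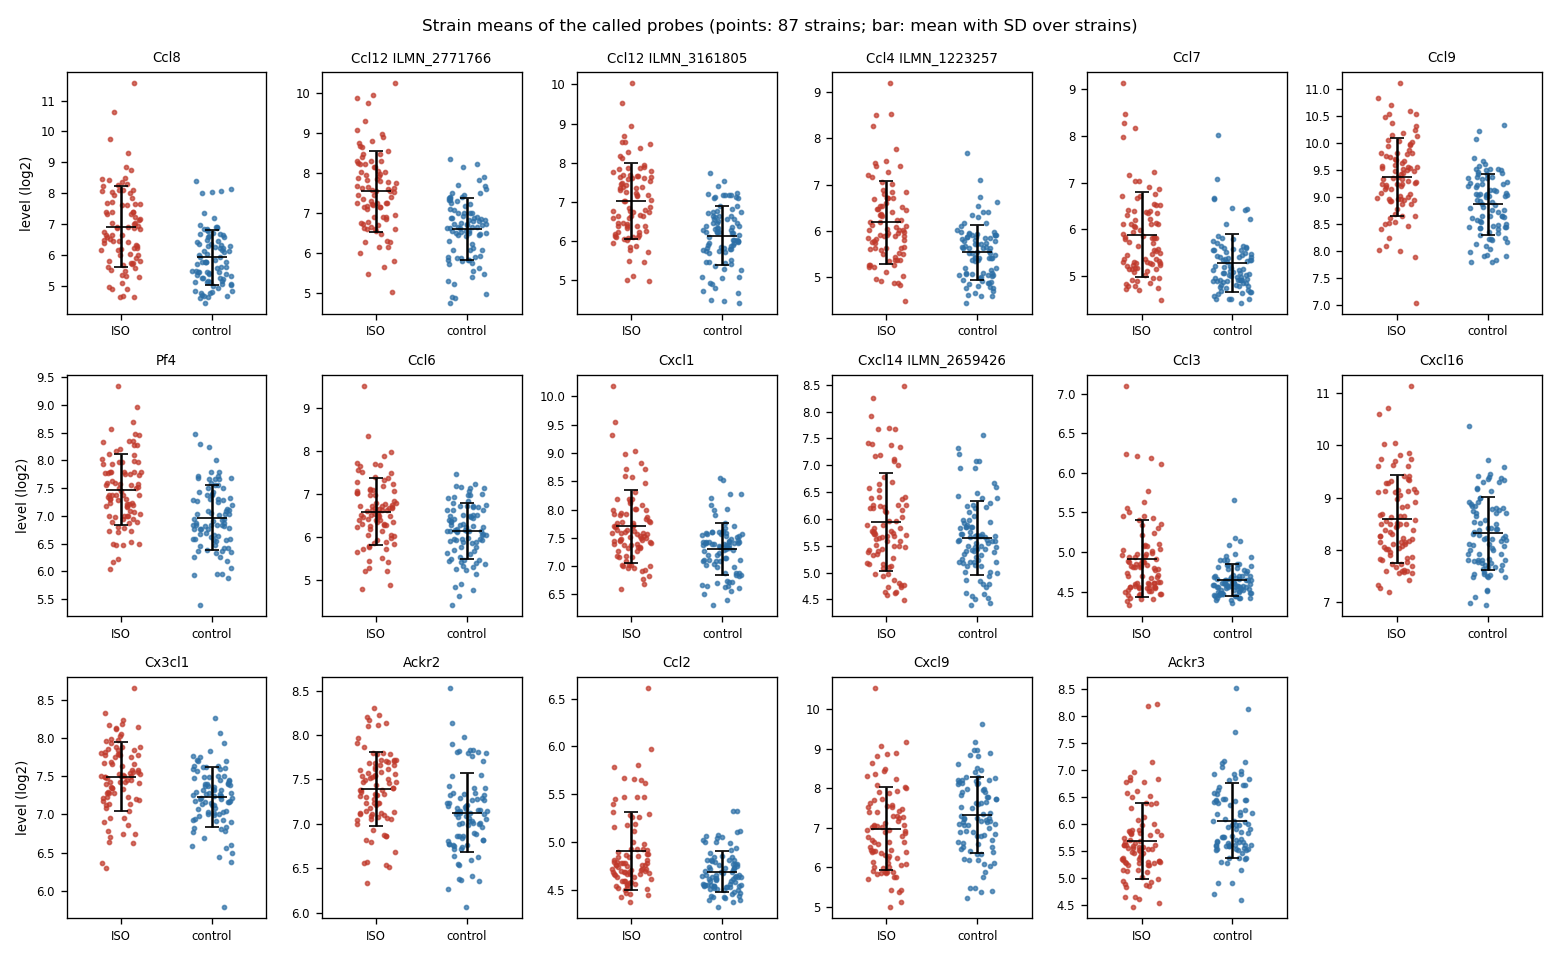
Level (normalized log2 intensity, y axis) of each of the 17 called probes in the ISO and control strain means, with 1 point per strain (87 strains in each group) and bars for the mean and SD over strains. The clouds overlap in every panel, with the widest shift in Ccl8 and Ccl12 and a lower ISO cloud in Cxcl9 and Ackr3.

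Among CXC and CX3C ligands, Pf4, a chemokine stored in platelet granules and also made by macrophages, showed the steadiest rise. Its levels were 6.05, 7.38 and 9.34 in ISO and 5.40, 6.91 and 8.48 in control, and its log2 fold change was 0.50 ± 0.06 (adjusted p = 3.572e-10), with 71 of 87 strains higher. Ppbp, the other platelet granule chemokine, had log2 fold changes of 0.05 ± 0.08 and -0.02 ± 0.06 with its 2 probes (adjusted p = 0.763 and 0.923), and 0 of 7 measured platelet markers were called, with mean levels between 4.60 and 5.68 in ISO strains and between 4.57 and 5.17 in control strains. Of the 7 platelet markers, 3 were detected.

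Cxcl1, a neutrophil attractant, had levels of 6.60, 7.59 and 10.19 in ISO and 6.31, 7.37 and 8.56 in control. It rose by 0.39 ± 0.08 on the log2 scale (adjusted p = 6.444e-05, 64 strains higher). The ranges overlapped over most of their length. Cxcl2, Cxcl3 and Cxcl5, which share the receptor Cxcr2 with it, were each detected on under 10% of arrays, with log2 fold changes of -0.00, 0.00 and -0.02. Of 13 neutrophil markers, 3 were higher in ISO, S100a8 by 0.83 and S100a9 by 0.46 on the log2 scale among them, and the marker mean was between 4.72 and 6.39 in ISO strains and between 4.74 and 5.52 in control strains. Their part in the Cxcl1 result was not tested.

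Cxcl16, a membrane-bound ligand and scavenger receptor, had levels of 7.21, 8.49 and 11.14 in ISO and 6.95, 8.24 and 10.37 in control, with a log2 fold change of 0.27 ± 0.07 (adjusted p = 0.00505, 60 strains higher). Cx3cl1, the membrane-bound ligand of Cx3cr1, had levels of 6.30, 7.50 and 8.65 in ISO and 5.78, 7.24 and 8.26 in control, with a log2 fold change of 0.27 ± 0.05 (adjusted p = 8.675e-05, 67 strains higher). In both the groups overlapped nearly completely. The 2 probes of Cxcl14, a chemokine of fibroblasts and epithelia, disagreed: ILMN_2659426 had levels of 4.48, 5.76 and 8.48 in ISO and 4.39, 5.59 and 7.56 in control and rose by 0.30 ± 0.10 (adjusted p = 0.0238, 57 strains higher), while ILMN_2760800 had a log2 fold change of -0.06 ± 0.10 (adjusted p = 0.792, 45 strains higher).

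Cxcl9, induced by interferon-γ, was the 1 ligand that fell. Its levels were 4.99, 6.91 and 10.53 in ISO and 5.22, 7.24 and 9.63 in control, and its log2 fold change was -0.34 ± 0.12 (adjusted p = 0.0333), with 26 of 87 strains higher in ISO. The ranges overlapped almost wholly, and KK/HlJ, on a BeadChip in doubt, had the largest fall at -3.99. Cxcl10, induced by the same signal, was detected on 9.62% of arrays and had a log2 fold change of 0.12 (adjusted p = 0.0808). T and NK cell markers had a mean between 4.76 and 5.91 in ISO strains and between 4.80 and 5.28 in control strains, with 1 of 16, Prf1, lower in ISO by a log2 fold change of -0.39, and their part in the Cxcl9 result was not tested.

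Cxcl12, made by endothelial and other stromal cells, was measured by 5 probes. All but ILMN_2746295, detected on 0% of arrays, were detected on at least 10% of arrays. Levels of probe ILMN_2658908 were 9.91, 12.65 and 13.41 in ISO and 11.15, 12.56 and 13.34 in control, with a log2 fold change of 0.04 ± 0.05 (adjusted p = 0.694). Across its 5 probes the log2 fold change lay between -0.03 and 0.21. The largest was that of probe ILMN_2737302, with ISO levels of 5.71, 7.66 and 9.05 and control levels of 5.12, 7.54 and 8.41, at 0.21 ± 0.08, which missed the threshold (adjusted p = 0.0595).

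Of the 22 receptor genes, 9 were detected on at least 10% of the arrays, namely Cxcr4, Cx3cr1, Ccr6, Ccr7, Ccrl2 and Ackr1 to Ackr4. Ackr2, which takes up inflammatory CC chemokines, had levels of 6.34, 7.41 and 8.30 in ISO and 6.06, 7.12 and 8.53 in control. It rose by 0.27 ± 0.06 on the log2 scale (adjusted p = 0.000244, 64 strains higher). Ackr3, a scavenger of Cxcl12, had levels of 4.47, 5.56 and 8.22 in ISO and 4.60, 5.94 and 8.52 in control, and its log2 fold change was -0.38 ± 0.10 (adjusted p = 0.00578), with 22 strains higher in ISO. Ackr3 was detected on 77 ISO arrays and 100 control arrays, and both of its extremes, -3.68 in AXB-6/PgnJ and 3.59 in BXH-9/TyJ, rest on arrays that stood apart or whose strain name is in doubt. Without the arrays that stood apart its log2 fold change was -0.32, and without the 5 BeadChips in doubt -0.39.

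Cxcr4, the signaling receptor of Cxcl12, had levels of 4.64, 6.12 and 7.56 in ISO and 4.68, 6.24 and 7.36 in control, and a log2 fold change of -0.14 ± 0.06 that missed the threshold (adjusted p = 0.147). Cx3cr1, a receptor of monocytes and macrophages, had levels of 4.44, 5.32 and 7.68 in ISO and 4.40, 5.51 and 7.16 in control, with a log2 fold change of -0.11 ± 0.08 (adjusted p = 0.403). Ackr1, which carries chemokines across venules and on red cells, had a log2 fold change of 0.12 ± 0.05 (adjusted p = 0.0686). Ccr1, Ccr2, Ccr3 and Ccr8, receptors of the ligands that rose or of their neighbors, were detected on 0% of arrays, so that neither their level nor a change in them could be measured with these probes. Of the 28 receptor probes, 3 had an adjusted p-value under 0.05 with no fold limit, against 15.1% of all probes. They were those of Ackr2 and Ackr3 and a probe of Ackr4 detected on 2.88% of arrays.

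The 17 calls depended on which arrays were used. Within the 3 sets of BeadChips, 4, 17 and 0 of the 80 probes were called in 24, 52 and 16 strains, against 2.14%, 7.24% and 0.0233% of all probes, and all 17 were the same probes in set 2. In set 3 without BeadChip 24, whose strain names are in doubt, 4 were called, against 0.568% of all probes. The log2 fold change of Ccl8 was 0.94, 1.17 and 0.63 in sets 1, 2 and 3, that of Ccl12 (ILMN_2771766) 1.15, 0.90 and 0.84, that of Pf4 0.80, 0.47 and 0.26, and that of Ccl4 1.05, 0.59 and 0.28. Cxcl16 (0.64, 0.27 and -0.09) and Cxcl14 ILMN_2659426 (0.37, 0.39 and -0.07) changed sign in set 3. Without BeadChips 12, 19, 23, 24 and 25, all 17 remained called in 80 strains and Cxcl12 ILMN_2737302 was added, against 8.78% of all probes. The log2 fold changes there were 1.09 for Ccl8, 1.07 for Ccl12, 0.57 for Pf4 and -0.40 for Cxcl9. Without the 5 arrays that stood apart, all 17 likewise remained in 84 strains and Cxcl12 ILMN_2737302 was added, against 6.59% of all probes. The log2 fold changes were then 0.92 for Ccl8, 0.90 for Ccl12 and 0.45 for Pf4. The ISO array of AXB-19/PgnJ, among those that stood apart, gave the highest difference of both Ccl12 probes and of Ccl4, Ccl6, Ccl9, Cxcl16 and Pf4.

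Levels also differed between strains. The paper left out probes lying over known single nucleotide polymorphisms, which was not done here. A strain difference in measured level can thus come from a variant under the probe, which was not tested. The F test of strain (limma) called 45 of the 80 probes, among 58.4% of all probes, so the share of chemokine probes lay near the background. With the BeadChip as a further block the counts were 17 of the 80 probes and 10.4% of all probes. The 8 probes with the largest SD over control strains were, in that order, Ccl27a (SD 1.06 on the log2 scale), Ccl21a (0.98), Cxcl9 (0.97), Ccl8 (0.90), Ccl21b (0.89), Ccl21c (0.83), Ccl12 (0.78) and Cxcl14 ILMN_2760800 (0.77). Ccl27a, Ccl21a and Ccl19, which share a stretch of chromosome 4, kept the smallest adjusted p-values with the BeadChip as a block, at 4.906e-14, 8.669e-07 and 1.171e-06.

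Ccl27a, a skin-homing T cell attractant that has near-identical copies in the mouse genome, fell into separate levels. Whether a variant under the probe has a part in these levels was not tested. With probe ILMN_3146018, 11 of 93 control strains lay at or below 6.39 and the other 82 at or above 7.11, and 14 of 93 ISO strains lay at or below 5.94 and the other 79 at or above 7.02. Of the 87 strains with both, 9 were low in both conditions, 11 in ISO and 9 in control. The 9 were BALB/cByJ, BALB/cJ, BXA-1/PgnJ, BXD21/TyJ, BXD61/RwwJ, BXD62/RwwJ, BXD79/RwwJ, C57BLKS/J and CXB-13/HiAJ. The 2 that were low only in ISO, BXH-6/TyJ and BXD-39/TyJ, each had an array on BeadChip 24 or 25, where strain names are in doubt. BXD-39/TyJ had 5.52 on its ISO array and 9.40 on the control array of BeadChip 25, while its other control array, on the BeadChip of the ISO array, was on the low side. The parent strains C57BL/6J (9.10 in ISO, 9.05 in control) and C3H/HeJ (9.07 in ISO, 9.15 in control) were high. The means of DBA/2J (7.02 in ISO, 8.47 in control) and of A/J in ISO (7.22) join arrays that disagreed. DBA/2J had 5.17 in ISO and 7.70 in control on BeadChip 1, and 8.87 in ISO and 9.23 in control on BeadChip 19, which is in doubt. A/J had 8.61 in ISO and 8.59 in control on BeadChip 5, and 5.82 on its ISO array of BeadChip 25, which is in doubt. The lower edge of the high ISO strains, 7.02, is thus the mean of 2 unlike arrays. With the second probe, ILMN_1216183, the 9 strains low in both conditions lay between 4.54 and 5.46. C57BL/6J had 6.82 in ISO and 7.15 in control with it. Its largest gap among control strains was 0.37, under the 0.72 of ILMN_3146018. The probes differed in the ISO array of C58/J, on BeadChip 23, at 5.38 with ILMN_3146018 and 6.625 with ILMN_1216183.

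**Figure D3:**
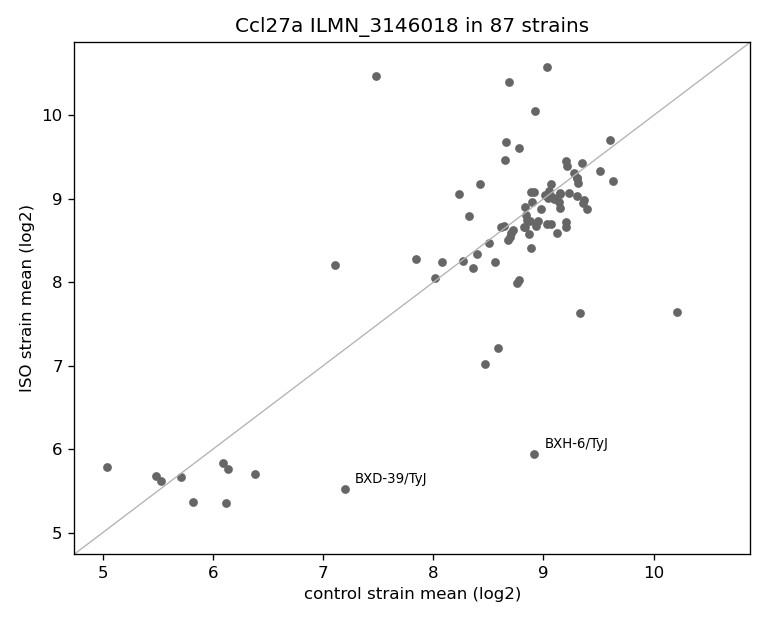
Ccl27a level with probe ILMN_3146018 in ISO (y axis) against control (x axis), in normalized log2 intensity, with 1 point per strain (87 strains) and the line of equality. The 9 strains low in both conditions lie at the lower left, and BXH-6/TyJ and BXD-39/TyJ are the 2 that are low in ISO and not in control.

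The 3 Ccl21 genes are near-identical copies whose probes may bind each other's transcripts, so their values are not independent. Ccl21a had levels of 6.88, 10.25 and 11.36 in ISO and 5.02, 10.10 and 11.91 in control, and its lowest values were those of NZB/BlNJ (6.88 in ISO, 6.95 in control) and the control array of AXB-4/PgnJ (5.02), one of the arrays that stood apart. Ccl21b (4.48) and Ccl21c (4.53) were lowest in the same control array. BXD-11/TyJ was the highest control strain for Ccl21a (11.91), Ccl21b (11.40) and Ccl21c (10.53). Ccl19 had levels of 4.59, 5.52 and 7.35 in ISO and 4.48, 5.46 and 7.40 in control. Ccl8 in control had 5 strains above a gap: BXD-14/TyJ, BXH-6/TyJ, CXB-3/ByJ, RIIIS/J and BXD50/RwwJ, between 8.01 and 8.39, with the next strain at 7.35.

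By strain family, the ISO response was called in 0 of the 80 probes (limma F test over 6 families, 0% of all probes), and 11 of the 80 had an unadjusted p-value under 0.05, against 8.72% of all probes. Ccl8 averaged a log2 difference of 1.13 in classical strains (n = 27), 0.29 in BXD/TyJ (n = 11), 1.29 in BXD/RwwJ (n = 22), 1.24 in AXB and BXA (n = 16), -0.16 in BXH (n = 4) and 0.76 in CXB (n = 7). Ccl12 ILMN_2771766 averaged 1.25, 0.49, 0.67, 1.24, -0.12 and 1.27 in the same families. With SDs between 0.29 and 1.66 within the families, these means were not separated by the test. BXH-6/TyJ and BXH-9/TyJ of the BXH family were only on BeadChip 24, whose strain names are in doubt. So were BXD-5/TyJ and BXD-20/TyJ of the BXD/TyJ family. In control hearts 1 of the 80 probes, a Cxcr2 probe detected on 0.481% of arrays, was called by family, against 0.985% of all probes.

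Markers of macrophages, fibroblasts and mast cells were higher in ISO hearts, as were the 8 CC ligand genes. Of 21 measured macrophage markers that are not chemokine genes, 13 were higher in ISO and 1, Folr2, was lower, with a median log2 fold change of 0.35. Lgals3 rose by 1.63, Ms4a7 by 0.98, Lyz2 by 0.82 and Adgre1 by 0.43 on the log2 scale. The mean of the 21 markers lay between 6.97 and 8.91 in ISO strains and between 6.78 and 8.54 in control strains, and was higher in ISO in 73 of 87 strains. Of the defining markers, Itgam (4.68 in ISO, 4.59 in control) and Fcgr1 (5.02 in ISO, 4.86 in control) lay near background. Of 12 fibroblast markers, 5 were higher and 0 lower, with Col3a1 at 0.70 and Col1a1 at 0.64 on the log2 scale, and their mean was between 7.86 and 9.53 in ISO strains and between 7.38 and 9.07 in control strains (67 of 87 strains higher in ISO). Of 7 mast cell markers, 4 were higher and 0 lower, with a mean between 5.02 and 7.07 in ISO strains and between 4.88 and 6.51 in control strains (65 strains higher). Of 10 dendritic cell markers, 3 were lower and 0 higher. The part of macrophages, fibroblasts, mast cells and dendritic cells in the results was not tested. The regression that follows relates changes within the same bulk pools and cannot tell more cells from more RNA per cell.

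Across the 87 strains, the ISO minus control difference of each probe was regressed on that of the macrophage marker mean (limma). The slope was positive and called in 16 of the 80 probes, against 3.84% of all probes, and negative in 0, against 0.817%. Ccl8 had the steepest slope, at 2.07 ± 0.26 (log2 per log2 unit of marker change, standard error; adjusted p = 1.638e-09), followed by Ccl4 at 1.19 ± 0.18 (adjusted p = 5.368e-07) and by the 2 Ccl12 probes at 1.15 ± 0.23 and 1.10 ± 0.23 (adjusted p = 0.000164 and 0.000327). Ccl9 (0.99), Cxcl14 (0.98 and 0.85), Cxcl16 (0.97), Ccl3 (0.83), Ccl7 (0.71) and Ccl6 (0.65) were also called. So were 5 probes of genes that were not called for ISO: Cx3cr1 (0.89 ± 0.16, adjusted p = 2.904e-05), Ccl21b (0.88), Ccl21a (0.74), Ccl21c (0.69) and Cxcr1 (0.23), the last near background. Cxcl1 (0.17 ± 0.18, adjusted p = 0.740), Pf4 (0.42 ± 0.14, adjusted p = 0.0643), Cx3cl1 (0.33 ± 0.12, adjusted p = 0.132), Ackr2 (0.26 ± 0.13, adjusted p = 0.357), Ackr3 (-0.05 ± 0.25, adjusted p = 0.964), Ccl2 (0.26 ± 0.10, adjusted p = 0.138) and Cxcl9 (0.44 ± 0.27, adjusted p = 0.484) rose or fell with ISO and had no called slope. With the set of BeadChips as a covariate 15 of the 80 slopes were called, that of Cxcr1 being lost (adjusted p = 0.0651). In either direction 4.01% of all probes were called there, against 4.66% without the covariate. Without the 5 BeadChips in doubt 13 of the 80 were called, against 3.17% of all probes. Ccl6 (adjusted p = 0.0871), Ccl7 (0.160), Cxcl14 ILMN_2760800 (0.202) and Cxcr1 (0.424) were lost, and Ackr1 was gained (0.42, adjusted p = 0.0472).

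**Figure D4:**
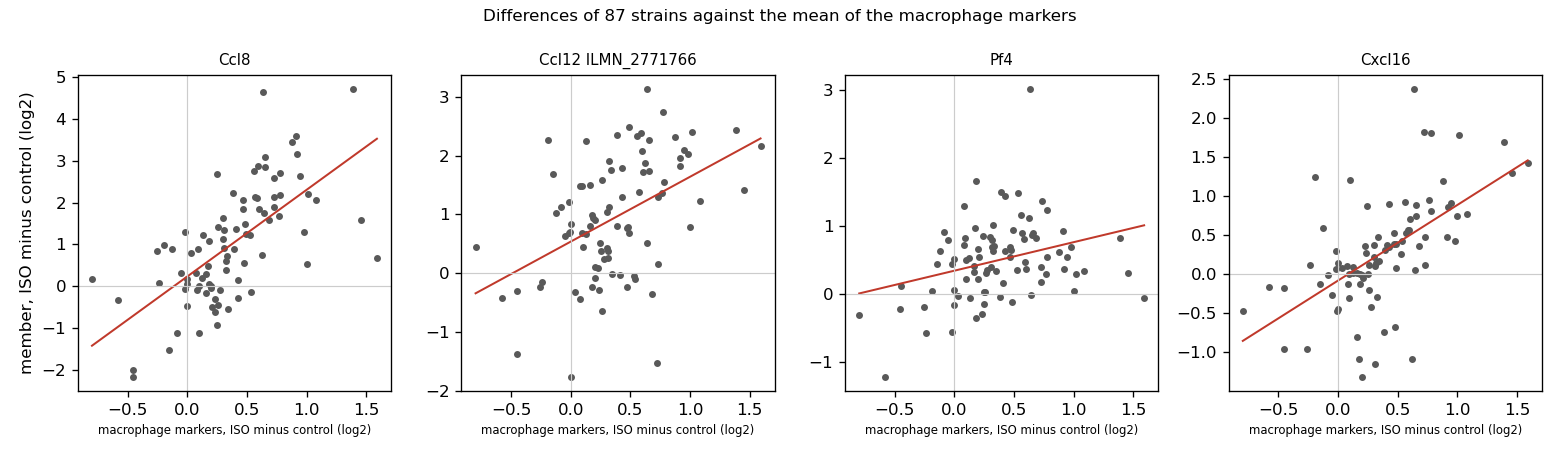
ISO minus control difference (log2, y axis) of Ccl8, Ccl12, Pf4 and Cxcl16 against that of the mean of 21 macrophage markers (log2, x axis), with 1 point per strain (87 strains) and the fitted line. The line is steepest for Ccl8, at 2.07, and flattest for Pf4, at 0.42.

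Ligand and receptor were compared for their change across strains. Of 20 listed pairs, 3 had both partners detected on at least 10% of arrays. Cxcl12 and Cxcr4 had r = 0.248 (permutation p = 0.0224, adjusted p = 0.0673) and rho = 0.151 (permutation p = 0.162, adjusted p = 0.485) over 87 strains, and r was 0.150 without the 2 strains farthest from the Cxcl12 median. Within the 3 sets of BeadChips r was 0.159, 0.207 and 0.352, and without the 5 BeadChips in doubt 0.0427. Ccl19 and Ccr7 had r = 0.0436 (permutation p = 0.687, adjusted p = 0.687) and rho = 0.0471 (permutation p = 0.665, adjusted p = 0.665), with r of -0.00572 without 2 strains and of -0.0528, 0.0894 and 0.0816 within the sets. Cx3cl1 and Cx3cr1 had r = 0.0909 (permutation p = 0.401, adjusted p = 0.601) and rho = 0.0553 (permutation p = 0.609, adjusted p = 0.665), with r of 0.00817 without 2 strains and of -0.117, 0.110 and 0.235 within the sets. After adjustment over the 3 pairs none passed 0.05 (two-sided), and the Cxcl12 relation rested in part on the 2 strains left out.

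Genes that act with chemokines were counted in 5 lists, against 7.25% of all probes called in either direction. Each gene was given by its probe of the highest mean, and most of these probes were detected. In the fit of detected probes only, 13.2% were called, so the list counts are to be read beside that share too. Of 51 measured genes of receptor signaling, 3 were higher and 1 lower. Grk5, a kinase that switches receptors off, rose by 0.73 on the log2 scale, Vav1 by 0.22 and Arrb2, a β-arrestin, by 0.20. Stat2 had a log2 fold change of -0.24. Of 17 other chemoattractant genes, 4 were higher and 0 lower, with Fpr2, a formyl peptide receptor, at 0.57 and Rarres2, the precursor of chemerin, at 0.33. Of 19 adhesion genes, Icam1 (0.26) and Selp (0.25), which hold leukocytes at the vessel wall, were higher. Of 24 genes of glycosaminoglycans and chemokine cleavage, 3 were higher, the metalloproteinases Mmp14 (0.51), Mmp2 (0.46) and Mmp12 (0.40), and 1, Cpd, lower (-0.21). Of 25 inducers of chemokine genes, 4 were higher, among them Il33 (0.42) and Tlr2 (0.33), and 1, Csf1, was lower (-0.24). The median log2 fold change of these 5 lists lay between 0.01 and 0.05, against -0.00 over all probes.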

How the data were processed

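RNA of pooled left ventricles was hybridized to Illumina mouse bead arrays in 208 samples. The deposited intensity values, with a detection p-value per probe and array, were made by the authors with GenomeStudio 2010.3 from the scanner images, and the authors also deposited normalized log2 values made with limma. The deposited detection p-values compare each probe with negative control beads. The array gives 829 further control probes that were not used. The genome build of the probe design is not given in the sources used here, and genes were named from the platform annotation (23978 probes with 1 symbol, 1719 with none, 0 with several). No per-sample column was left unmapped.

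Intensities were background corrected, quantile normalized and log2 transformed with neqc of limma 3.58.1 (R 4.3.3; offset 16), which came within a median of 0.00057 of the deposited log2 values. Arrays of a strain and condition were averaged, and ISO was tested against control with limma with the strain as a block. The means of ISO and control were paired by strain name. Adjusted p-values (Benjamini-Hochberg) run over all 25697 probes. A probe was called at an adjusted p-value under 0.05 and a log2 fold change beyond 0.2. A probe was called detected with a detection p-value under 0.05 on at least 10% of arrays. Strain and family were tested with F tests, and slopes on macrophage markers by regression, in the same tool. Correlations used 100000 permutations (Python 3, two-sided). Tested on simulated strain means with known changes, 99% of log2 changes of 0.5 and 100% of changes of 1 were found, with 2 false calls among all 25697 probes. Levels of different probes are not comparable. The number of arrays and the pooling limit the precision, and nothing says that pools of a strain came from separate experiments.

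Named are the called probes, the 8 probes of largest SD over control strains, up to 4 called genes of each list, and as uncalled members Ccl11, Ppbp, Cxcl10, Cxcl12, Cxcr4 and Cx3cr1. Further uncalled members, named as neighbors or partners, were chosen after their values were seen. The members and lists were chosen with earlier results of these data known. Alternatives were unpaired fits, the deposited log2 values, no background correction, median scaling, detected probes only, single arrays, first arrays, pairs on 1 BeadChip, each set of BeadChips, and leaving out doubtful BeadChips, arrays of low connectivity (z-score under -2.5) or the fold limit.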

Additional observations from a re-analysis of the deposited data

Results flagged for a closer look

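Within the families of 4 to 10 strains, the ISO minus control differences of the 17 called probes were searched for a strain far from the rest, in 34 groups, of which chance would single out about 1 in 20. In 2 groups 1 strain stood out. Cxcl13 was added after its values were seen, so that no chance rate applies to it. This B cell attractant had a log2 difference of 6.11 in BXH-19/TyJ, against -0.02 to 0.10 in the other 3 BXH strains. Cxcl13 also had -1.11 in CXB-13/HiAJ, against -0.29 to 0.15 in the other CXB strains. Ccl3 had 2.58 in CXB-11/HiAJ, where the other CXB strains lay between -0.62 and 0.34. Cxcl9 had -2.42 in CXB-12/HiAJ, where the others lay between -0.75 and 0.36. None of the strains that stood out was on a BeadChip whose strain names are in doubt. Some they were set against were: BXH-6/TyJ, BXH-9/TyJ, CXB-6/ByJ and CXB-7/ByJ. No family had all strains moving opposite to all strains of another family in a called probe.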

How the results depend on the processing

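Of the 17 calls for ISO, 14 remained called in either fit with no replicate block (strain), over all strains or over the 87 with both, with 6.02% and 5.69% of all probes called. Cxcl9, Cxcl14 and Cxcl16 were lost there. The deposited log2 values kept all 17, against 7.27% of all probes. Without background correction 10 were called, against 3.23% of all probes, and Ackr2, Ackr3, Ccl2, Ccl3, Cx3cl1, Cxcl14 and Cxcl9 were lost. Median scaling lost Cxcl9 (adjusted p = 0.0606), with 6.56% of all probes called. Single arrays with strain and BeadChip as blocks called the 17 and Cxcl12 ILMN_2737302, against 8.07% of all probes. So did first arrays only and pairs on 1 BeadChip (7.97% of all probes), which used the same arrays and are thus 1 check. The first set of BeadChips alone called 4, the third set 0, and the third set without BeadChip 24 called 4. The shares of all probes there were 2.14%, 0.0233% and 0.568%. Cxcl14 ILMN_2659426 (-0.0688) and Cxcl16 (-0.0887) were reversed in the third set alone. The strain F test called 17 of 80 probes with BeadChip as a further block, against 10.4% of all probes. Without the 5 BeadChips in doubt, the response by family was called in 1 probe, against 0.117% of all probes. It was Cxcl13 (adjusted p = 6.756e-05), where BXH held 2 strains, BXH-19/TyJ with a difference of 6.11 among them. The control level by family was called there in 3 probes (Cxcr2, Ccr6 and Ccl4 ILMN_1224472), against 2.79% of all probes. With the set of BeadChips as a covariate the control level was called in 0, against 0.00389% of all probes. In the 5 lists 19 genes were called, and 7 without background correction, against 7.25% and 3.23% of all probes. The cause of these changes was not tested. Probes near background, Ccl2 and Ccl3 among them, limit the fold change that can be measured.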

Other observations

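Cxcl13 was near background in nearly all hearts, being detected on 2.40% of arrays, and was singled out after its values were seen. In the ISO pool of BXH-19/TyJ its level was 10.65, against 4.55 in the control pool of that strain, while the next highest ISO strain, BXA-8/PgnJ, had 5.38. Cxcr5, its receptor on B cells, had its highest ISO levels in the same pool, at 6.00 and 5.93 with probes ILMN_2990502 and ILMN_2990494, against 4.56 and 4.83 in the control pool. A further Cxcr5 probe, ILMN_1219316, was detected on 0% of arrays and was not highest in that pool.

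The same ISO pool ranked 1 of 93 ISO strains for the mean of 8 B cell markers, at 6.11, against 4.74 in the control pool, with the second ISO strain at 4.86. The antigen receptor genes Cd79b (9.64 in ISO, 5.81 in control) and Cd79a (7.42 in ISO, 4.70 in control), the kinase Blk (6.56 in ISO, 4.51 in control) and Fcrla (6.75 in ISO, 5.08 in control) were high, whereas Ms4a1 (4.68 in ISO, 4.39 in control), Cd22 (4.65 in ISO, 4.52 in control), Pax5 (4.57 in both) and Cr2 (4.57 in ISO, 4.36 in control) were near background. It also ranked 1 for the mean of the mast cell markers, at 7.07, against 5.17 in the control pool, and of the monocyte markers, at 6.83, against 6.05, with the second ISO strain at 6.61 for the monocyte markers. It ranked 19 for T and NK cell markers, at 5.02, against 4.93. These are values of 1 ISO pool and 1 control pool on the same BeadChip, with no replicate.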
